A study of Mus musculus with 26 samples.

Results

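The genes that build and run the photoreceptor cilium were followed in rd10 retinas after 5 chromatin inhibitors. The set was defined by name alone: every measured gene whose symbol is Ift, Bbs, Tctn or Nphp followed by a number, together with a short list of further names that includes Rpgr, Rpgrip1, Cep290, Iqcb1, Mks1, Tmem67, Tmem216, Tmem231, Tmem237, Arl3, Kif3a and Kif17. It held 41 of the 37991 genes in the table of counts, and all 41 passed the filter on low counts in every comparison. They comprise 11 genes of intraflagellar transport complex B (IFT-B), 3 of complex A (IFT-A), 8 Bbs genes, 15 genes of the transition zone, 2 kinesin genes and 2 genes of ARL GTPases.

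All mice carried rd10, a mutation of the rod phosphodiesterase gene Pde6b that makes rods degenerate (B6.CXB1-Pde6brd10/J). They received intraperitoneal injections from postnatal day 9 to day 24, of an inhibitor or of a control solution, and mRNA was sequenced. Per the paper, UNC1999 was dissolved in saline with DMSO, PEG and Tween, and the other inhibitors in saline. Its text names saline for the UNC1999 controls, and a figure legend only the diluent. DZNep was given daily at first, then every second day at a lower dose. Whole retinas came from 4 control and 2 DZNep-treated samples, 3 control and 3 UNC1999-treated, 2 control and 2 UNC0642-treated, and 3 control and 3 Romidepsin-treated. In the fifth experiment rd10 mice were crossed to B6.Cg-Tg(Nrl-EGFP)1Asw/J, whose EGFP is driven by the rod-specific Nrl promoter, and EGFP-marked rods were sorted from 2 control and 2 GSK2879552-treated samples. DZNep lowers the activity of methyltransferases, EZH2 among them, by blocking the breakdown of S-adenosylhomocysteine; UNC1999 inhibits EZH2 and EZH1, UNC0642 the H3K9 methyltransferases G9a and GLP, Romidepsin class I histone deacetylases and GSK2879552 the demethylase LSD1. Labels call the replicates biological but do not say whether a sample is 1 mouse or a pool, so p-values measure the spread between these samples. The label of the genotype ends in a number that climbs library by library from the second DZNep control to the last UNC1999 sample, and the treatment field of UNC1999 replicates 2 and 3 reads UNC2000 and UNC2001; groups were taken from the sample titles.

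A rod keeps its light-sensing discs in an outer segment, which is a modified primary cilium joined to the cell body by a narrow connecting cilium. Intraflagellar transport trains carry cargo along that cilium, IFT-B outward with kinesin-2 and IFT-A back with dynein, while the BBSome, a coat of BBS proteins, returns membrane proteins that do not belong there. The transition zone at its base acts as the gate, and the small GTPase ARL3 releases lipid-anchored cargo inside. Mutations in many of these genes cause inherited retinal degeneration, alone or in Bardet-Biedl, Joubert and Senior-Løken syndromes.

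Retina libraries held 13732959 to 36354094 counted reads and those of sorted rods 7289460 to 19864491, and every cilium gene had at least 61 counts in each retina and 10 in each rod library. The summed level of 30 rod transcripts differed between control retinas, from 14388 CPM (counts scaled to the size of the library) in an UNC0642 control to 52232 CPM in the third UNC1999 control, which stood above the other UNC1999 controls at 33707 and 28952 CPM. The results of that experiment are therefore given with and without this library. Sorted rods held 79132 to 114579 CPM of the rod transcripts. Markers of other cells remained in them: the 12 of the pigment epithelium summed to 9.36 to 12.6 CPM (3 of them, Rpe65, Ttr and Tyr, at 0 counts in all 4 libraries), the 10 of Müller glia to 421 to 660 CPM, and the 10 of cones to 3104 and 4664 CPM in the controls, above the 1637 to 2982 CPM of control retinas. In whole retinas, more rods and more RNA per rod cannot be told apart.

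After DZNep, 21 of the 41 cilium genes were higher and 1 was lower. The test was edgeR's quasi-likelihood F test with Benjamini-Hochberg adjustment over all genes tested, called at an adjusted p-value under 0.05 with no threshold on the fold. Among all 16477 genes, 12.9% were called higher and 9.72% lower. The median log2 fold change was 0.25 over the cilium genes and −0.001 over all genes, and 35 of the 41 lay above 0, against 49.9% of all genes. Both DZNep retinas lay above all 4 controls for 26 cilium genes (24.4% of all genes) and below them for 2 (21.5%). The changes were small: none of the cilium genes passed the test with an absolute log2 fold change above 1, which 1.71% of all genes did.

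**Figure D1:**
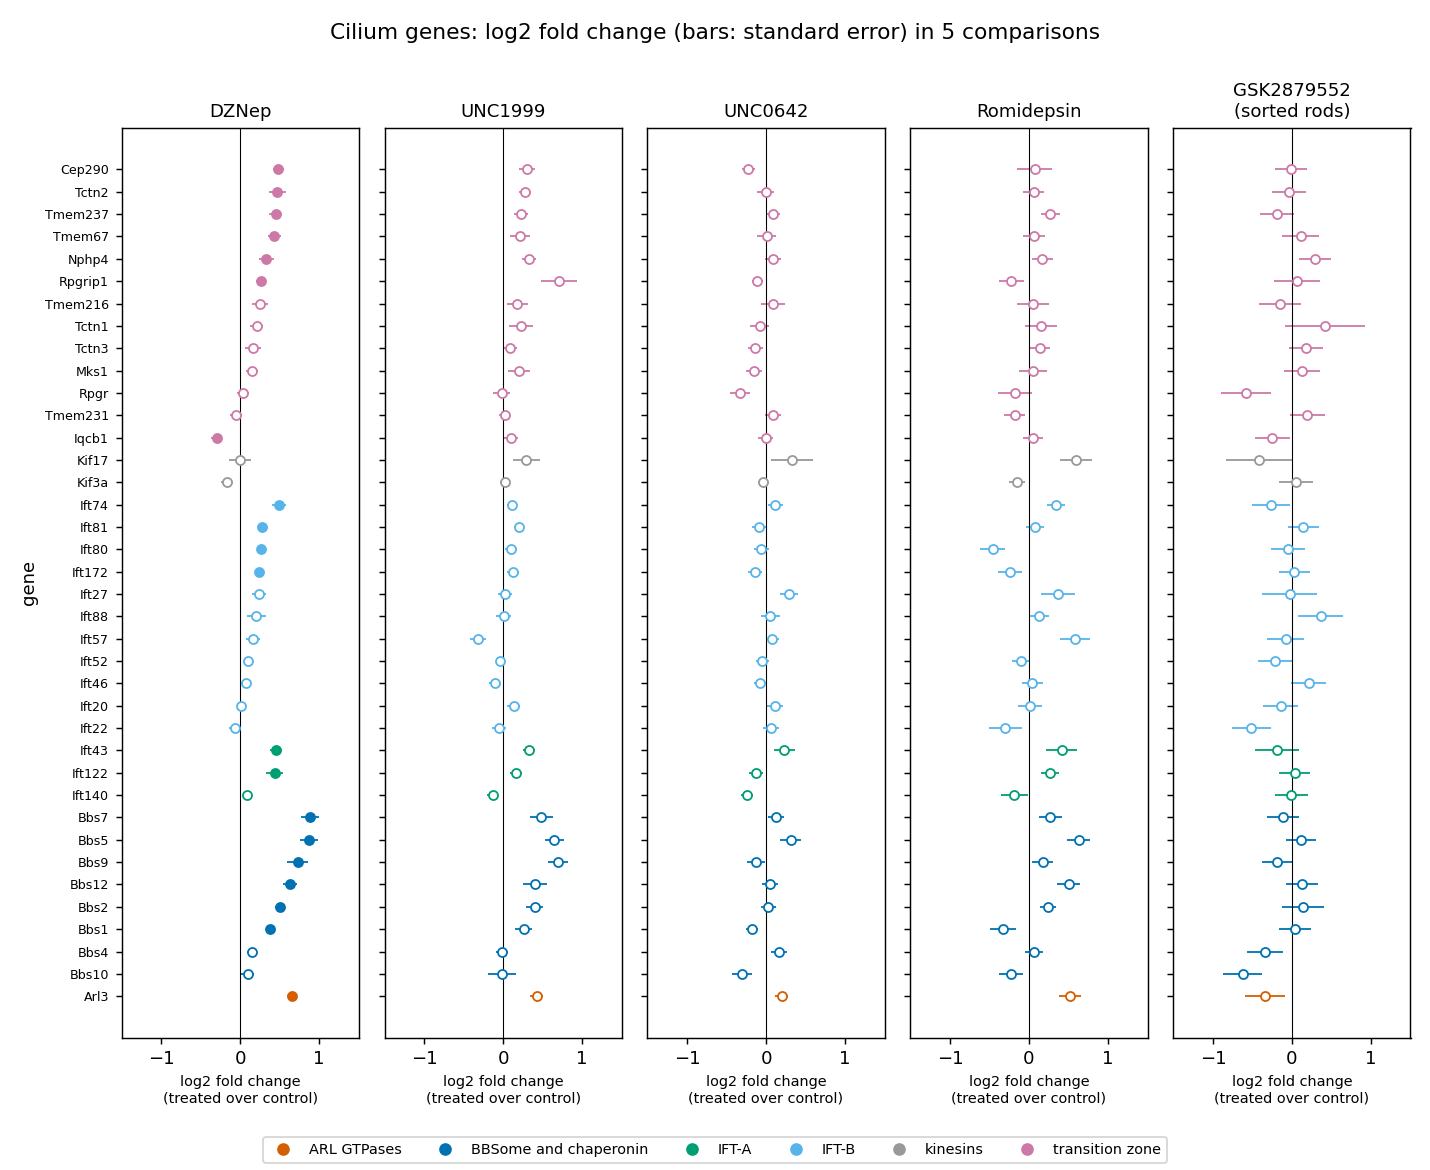
Log2 fold change (x axis, treated over control) of 38 of the cilium genes (y axis) in the 5 comparisons, with the standard error as bars; filled points passed the test at an adjusted p-value under 0.05, open points did not, and colours mark the groups of genes. The 20 filled points are all in the DZNep panel, and only Iqcb1 among them lies left of 0.

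Arl3 (chromosome 19 from 46605599 to 46647575 in NCBIM37, minus strand), the most abundant cilium gene per length, gave 124.7, 110.9, 118.6 and 106.6 CPM in the controls and 185.7 and 176.3 CPM in the treated retinas, without overlap between the groups. It rose by 0.65 on the log2 scale (standard error 0.063), with the smallest adjusted p of the set at 0.000671.

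Of the 8 Bbs genes 6 were higher, with a median log2 fold change of 0.57 over all 8. Bbs7, which encodes a subunit of the BBSome core, read 96.8, 79.0, 87.4 and 70.7 CPM in the controls against 167.7 and 140.2 CPM, which is 0.89 higher on the log2 scale (standard error 0.11, adjusted p = 0.00143). For Bbs5, a BBSome subunit that binds phosphoinositides, control values of 37.0, 30.8, 34.0 and 26.6 CPM faced 61.8 and 55.4 CPM (0.87, standard error 0.11, adjusted p = 0.00149). Every treated value of these genes exceeded every control value, and the control with the lowest levels, replicate 4, also had the lowest summed rod transcripts at 26859 CPM. Bbs9 rose by 0.73 on the log2 scale, Bbs12, a chaperonin-like assembly factor, by 0.63, Bbs2 by 0.50 and Bbs1 by 0.38. Bbs1 was among the most even, with 127.1, 120.6, 121.2 and 115.7 CPM in the controls and 155.6 and 160.2 CPM after DZNep. Bbs4, also of the BBSome (0.15, adjusted p = 0.13), and the chaperonin-like Bbs10 (0.09, adjusted p = 0.42) did not pass.

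**Figure D2:**
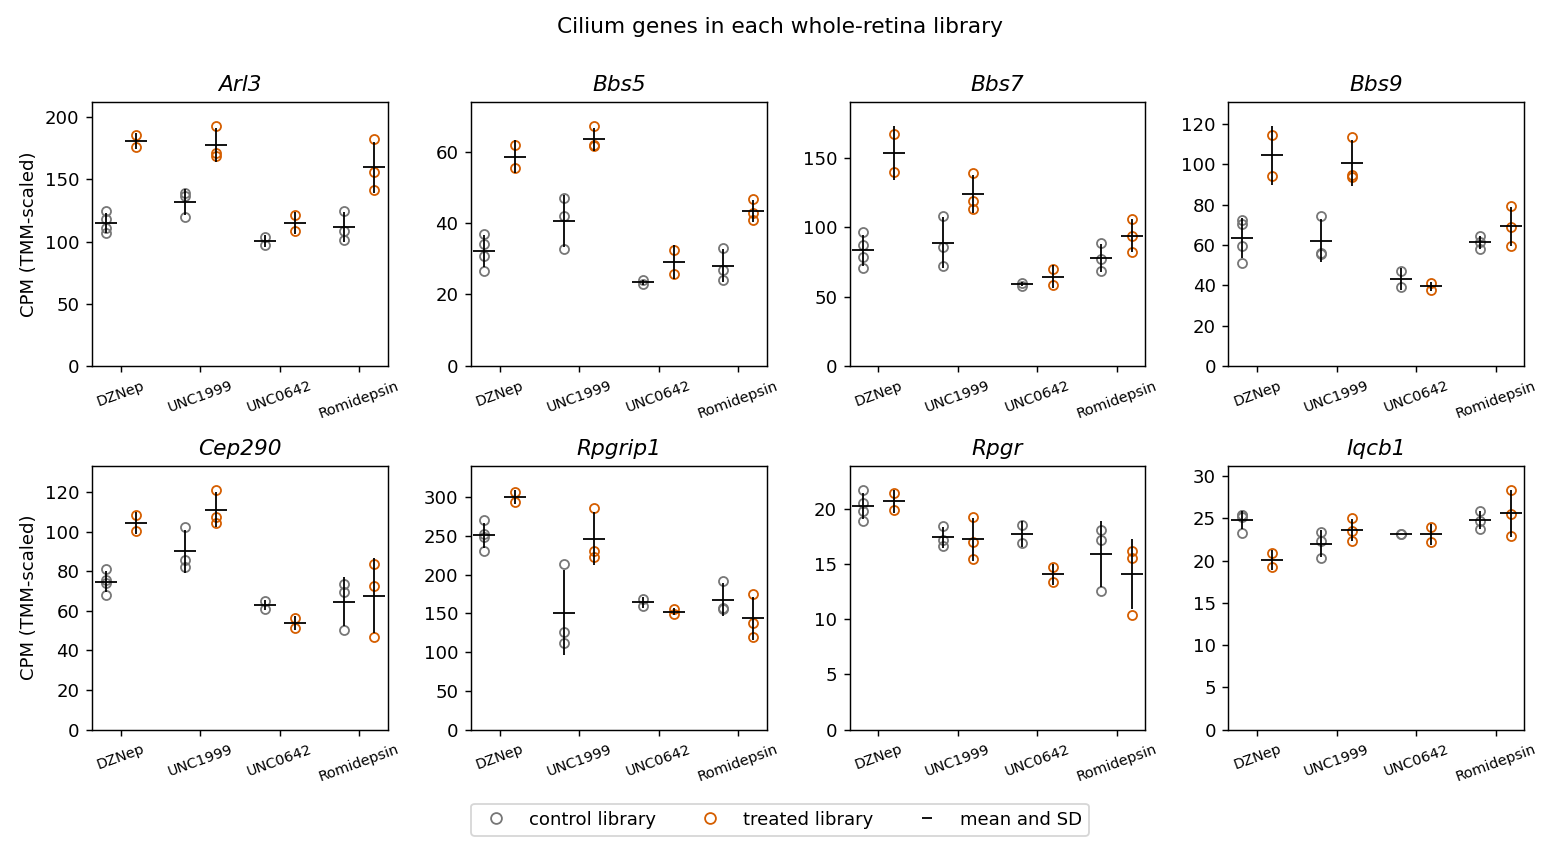
TMM-scaled CPM (y axis, from 0) of 8 cilium genes in each library of the 4 whole-retina experiments (x axis); circles are libraries, grey for control and orange for treated, and black marks give the mean and SD. Treated retinas lie above all controls for Arl3, Bbs5, Bbs7 and Bbs9 after DZNep and after UNC1999, whereas Iqcb1 lies below them after DZNep.

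Intraflagellar transport genes were called in part. In IFT-A, Ift43 (0.45) and Ift122 (0.44), which encodes a core subunit, were higher, and Ift140 gave 59.8, 57.8, 59.9 and 57.0 CPM in the controls and 61.9 and 62.9 CPM after DZNep (0.09, adjusted p = 0.21). In IFT-B 4 of 11 genes passed: Ift74, Ift81, Ift80 and Ift172, with log2 fold changes of 0.49, 0.28, 0.26 and 0.24. IFT74 and IFT81 pair with each other and bind tubulin. Ift88, whose hypomorphic allele Tg737orpk shortens outer segments, measured 20.4, 19.7, 22.6 and 20.5 CPM in the controls, and its treated values lay apart from each other at 27.5 and 19.8 CPM, so that the groups overlapped (0.21, adjusted p = 0.25). The other IFT-B genes, Ift20, Ift22, Ift27, Ift46, Ift52 and Ift57, ranged from −0.06 for Ift22 to 0.24 for Ift27. Neither kinesin gene passed: Kif3a, the motor subunit of heterotrimeric kinesin-2, gave −0.16 (adjusted p = 0.16) and Kif17, a homodimeric kinesin-2, −0.004 (adjusted p = 0.99).

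At the transition zone 7 of 15 genes were higher and 1 was lower. Cep290, which encodes a scaffold between the microtubules and the membrane, read 81.3, 74.2, 75.6 and 68.1 CPM in the controls and 108.5 and 100.3 CPM after DZNep (0.48, standard error 0.069, adjusted p = 0.00209). Tctn2, Tmem237, Tmem67 and Nphp4 were among those that followed, with 0.47, 0.45, 0.43 and 0.33. Rpgrip1, the anchor of RPGR in the connecting cilium, rose from 270.9, 251.9, 248.5 and 230.8 CPM to 307.0 and 293.6 CPM, or by 0.26 on the log2 scale (standard error 0.063, adjusted p = 0.0188). Its partner Rpgr, the gene of X-linked retinitis pigmentosa, did not pass, and its groups overlapped at 18.9, 19.9, 21.8 and 20.5 CPM in the controls and 21.5 and 19.9 CPM in the treated retinas (0.04, adjusted p = 0.78).

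The gene that fell was Iqcb1 (also called Nphp5), whose protein binds CEP290 at the transition zone. It measured 25.4, 23.2, 25.1 and 25.4 CPM in the controls and 20.9 and 19.2 CPM after DZNep, with no overlap, and its log2 fold change was −0.30 (standard error 0.071, adjusted p = 0.0179). Among the other transition zone genes, Tctn1, Tctn3, Mks1, Tmem216 and Tmem231 ran from −0.05 to 0.25 without passing.

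Markers of several cell types moved with the same contrast. All 30 rod transcripts were higher (median log2 fold change 1.06), and their summed level was 26859 to 43494 CPM in the controls and 80185 and 77565 CPM after DZNep. The summed level of the cilium genes went from between 1896 and 2118 CPM to 2622 and 2431 CPM. Of 10 Müller glia markers 8 were lower (summed 11436 to 11845 CPM in the controls, 8058 and 8871 CPM after DZNep), 6 of 9 bipolar cell markers were lower (2106 to 2319 CPM against 1804 and 1900 CPM) and 3 of 10 cone markers were lower (2625 to 2982 CPM against 2194 and 2319 CPM). These sums did not overlap between the groups. Cones carry a cilium of the same kind. Of the other markers, 3 of 12 of microglia and 1 of 10 of inner neurons were lower, and 6 of 12 of the pigment epithelium were higher. Microglia markers summed to 243 to 538 CPM in the controls and 181 to 207 CPM after DZNep (median log2 fold change −0.84). Those of the pigment epithelium summed to 126 to 246 CPM against 291 to 432 CPM (median 1.15). Neither sum overlapped between the groups, whereas that of inner neurons did. The part of these cells in the cilium values was not tested. Lens transcripts summed to 3.83 to 5.01 CPM in the controls, 2.98 CPM in the first and 78.0 CPM in the second DZNep retina. Without that second retina 18 cilium genes were higher (8.91% of all genes), Arl3, Bbs5, Bbs7 and Cep290 among them; without the first, 8 were (4.71%), Arl3, Bbs1, Bbs2, Bbs5, Bbs7, Bbs12 and Cep290 among them, and Iqcb1 passed in neither. In these fits the lone treated sample is assumed to vary like the controls.

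A wider list of 70 other cilium gene entries, of which 68 were tested, had 34 higher and 1 lower after DZNep (median 0.29). Genes of the photoreceptor axoneme and connecting cilium had 14 of 15 tested higher (median 0.60), for example Rp1, which organises outer segment discs along the axoneme (1.17), and Tulp1, a trafficking adaptor (0.98). Of 19 tested IFT, motor and adaptor genes 9 were higher, such as the dynein-2 gene Wdr60 (0.74) and the kinesin-2 gene Kif3b (0.47), and Tulp3 was lower (−0.38). Among genes for lipid-anchored cargo, the ARL3 effectors Unc119 (0.91) and Pde6d (0.37) were higher, and Rp2h, which encodes the GTPase-activating protein of ARL3, gave 0.07 (adjusted p = 0.65). Of 12 tested genes listed for motile cilia, 4 were lower and none was higher (median −0.39). The whole list summed to 83.0 to 87.6 CPM in the DZNep controls and 165 to 240 CPM in control sorted rods. Only 5 of its 15 genes had at least 10 counts in both control rod libraries. The log2 ratio of the level per length, control sorted rods over control retinas, had a median of −1.07, with 5 of the 15 above 0. Part of the list was therefore present in sorted rods, while most of it was lower there than in retinas.

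Many but not all promoters of the cilium genes hold a sequence motif that the naming rule did not use. RFX transcription factors bind the X-box, an imperfect inverted repeat found at many ciliary promoters, and CRX is a homeodomain factor of photoreceptors. RefSeq promoters (GRCm38.p6, 250 bases before to 50 after the start) were matched by symbol for 35 of the 41 genes; Ift122, Ift80, Ift81 and Tmem67 were among those not matched. An X-box, searched on both strands as GTNNCC and, after 0 to 3 bases, GNAAC, was present for 16 of the 35 genes, or 45.7%, against 5.59% of all 27025 genes. The half-site GTTGCC, which can be the left part of an X-box, was present for 18 of the 35 (51.4% against 14.1%), and 11 had both. Of the 16 matched genes that were higher after DZNep 6 had an X-box, and of the other 19 matched genes 10 had one. The 6 boxes, in capitals with 10 flanking bases on the strand of the gene, are shown to compare their letters:
Bbs1: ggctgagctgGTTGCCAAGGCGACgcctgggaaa
Bbs7: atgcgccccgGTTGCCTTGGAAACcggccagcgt
Ift74: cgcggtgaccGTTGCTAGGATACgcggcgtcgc
Nphp4: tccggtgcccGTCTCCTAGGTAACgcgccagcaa
Tctn2: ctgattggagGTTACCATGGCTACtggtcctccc
Tmem237: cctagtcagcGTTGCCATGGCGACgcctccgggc

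Counted from the start site as base 1, these boxes begin at base 2 for Bbs1, −121 for Bbs7, −5 for Ift74, −231 for Nphp4, −62 for Tctn2 and −27 for Tmem237. Genes whose levels did not pass after DZNep also carry boxes, of which those of Kif17 and Ift57 are given for comparison:
Kif17: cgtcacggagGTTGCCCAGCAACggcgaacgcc
Ift57: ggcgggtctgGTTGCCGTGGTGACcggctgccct

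The promoters of Bbs7 and Bbs5, both among the genes with the largest changes after DZNep, are printed whole, since they differ in what they hold. Bbs7 carries the X-box in capitals (chr3:36613340-36613639, minus strand), matched on both strands. Bbs5 (chr2:69646921-69647220, plus strand) carries the half-site alone, in capitals, from base 43:
Bbs7: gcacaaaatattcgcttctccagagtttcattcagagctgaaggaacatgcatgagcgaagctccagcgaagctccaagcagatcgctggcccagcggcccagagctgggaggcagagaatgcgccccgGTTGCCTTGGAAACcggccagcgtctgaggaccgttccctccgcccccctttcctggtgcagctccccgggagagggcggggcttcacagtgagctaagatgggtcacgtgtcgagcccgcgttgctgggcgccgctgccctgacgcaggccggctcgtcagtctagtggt
Bbs5: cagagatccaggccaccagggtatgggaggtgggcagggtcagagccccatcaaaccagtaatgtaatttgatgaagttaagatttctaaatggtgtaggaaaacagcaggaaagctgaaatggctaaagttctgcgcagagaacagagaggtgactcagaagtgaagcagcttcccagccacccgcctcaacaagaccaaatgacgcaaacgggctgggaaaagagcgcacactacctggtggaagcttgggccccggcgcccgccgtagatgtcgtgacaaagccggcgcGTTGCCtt
The CRX motif TAATCC was found for 2 of the 35 genes, Bbs1 and Rpgrip1, or 5.71% against 8.14% of all genes. In Rpgrip1, the cilium gene with the highest level in sorted rods, it lies on the opposite strand from base −28 (chr14:52110653-52110952, plus strand), in capitals:
Rpgrip1: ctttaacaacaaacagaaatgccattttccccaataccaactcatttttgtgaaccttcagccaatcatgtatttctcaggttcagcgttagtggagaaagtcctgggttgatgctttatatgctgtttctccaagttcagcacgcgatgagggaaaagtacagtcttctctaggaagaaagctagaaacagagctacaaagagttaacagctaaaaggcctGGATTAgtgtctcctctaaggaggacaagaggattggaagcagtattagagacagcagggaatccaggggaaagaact

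After UNC1999 the cilium genes ranged from −0.32 for Ift57 to 0.71 for Rpgrip1, and none of the 41 passed edgeR's quasi-likelihood test, where 0.501% of all 15775 genes were called higher and 0.101% lower. The smallest adjusted p of the set was 0.053, and 16 of the 41 had an unadjusted p under 0.05, against 23.6% of all genes. By DESeq2 7 cilium genes were higher (5.00% of all genes) and by the likelihood ratio test 8 (5.32%). The median log2 fold change was 0.20, against −0.002 over all genes, and 33 of the 41 lay above 0 (49.6% of all genes). The treated retinas lay above all controls for 15 genes (13.9% of all genes) and below them for 2 (13.6%).

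The genes with the smallest p-values again included Bbs9 and Arl3. Bbs9 read 56.3, 55.5 and 74.4 CPM in the controls and 113.8, 94.9 and 93.7 CPM after UNC1999 (0.70, standard error 0.13, adjusted p = 0.053). Arl3 read 137.0, 120.1 and 139.3 CPM against 193.1, 168.7 and 171.4 CPM (0.43, adjusted p = 0.053). Both genes had separate groups, as did Bbs5 (0.65) and Bbs7 (0.48). Rpgrip1 measured 126.5, 112.2 and 213.6 CPM in the controls and 230.3, 222.8 and 285.3 CPM after UNC1999, so that the third control came close to the treated retinas (0.71, standard error 0.23, adjusted p = 0.12). Ift57, a peripheral IFT-B subunit, was lower in each treated retina, at 32.1, 36.3 and 35.9 CPM against 49.8, 41.4 and 38.9 CPM (−0.32, adjusted p = 0.12). Rpgr (−0.02), Ift88 (0.006), Kif3a (0.02) and Bbs4 (−0.01) lay close to 0, with adjusted p from 0.88 to 0.98.

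The third UNC1999 control, whose rod transcripts were the highest of all control retinas, decided the calls. It was singled out after its rod transcripts were seen, and leaving it out removes the control nearest the treated retinas in them. Leaving out any other library of this experiment gave 0 calls. Without the third control 16 cilium genes were higher (8.31% of all genes) and Ift57 was lower (8.50%). Rpgrip1 then had the largest log2 fold change at 1.05 (standard error 0.12, adjusted p = 0.0021), followed by Bbs9 at 0.85, and Bbs5 was at 0.77, Bbs7 at 0.66 and Bbs12 at 0.54. Also higher were, among others, Arl3, Bbs1, Bbs2, Cep290, Ift43, Ift81, Nphp4, Tctn1, Tctn2 and Tmem67. Beside them the rod transcripts summed to 28952 to 52232 CPM in the 3 controls and 69178 to 92656 CPM after UNC1999 (median log2 fold change 0.94, 1 of 30 passing), 8 of 12 markers of the pigment epithelium were higher and the microglia markers summed to 245 to 454 CPM in the controls and 136 to 183 CPM after UNC1999. Their part in the cilium values was not tested.

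**Figure D3:**
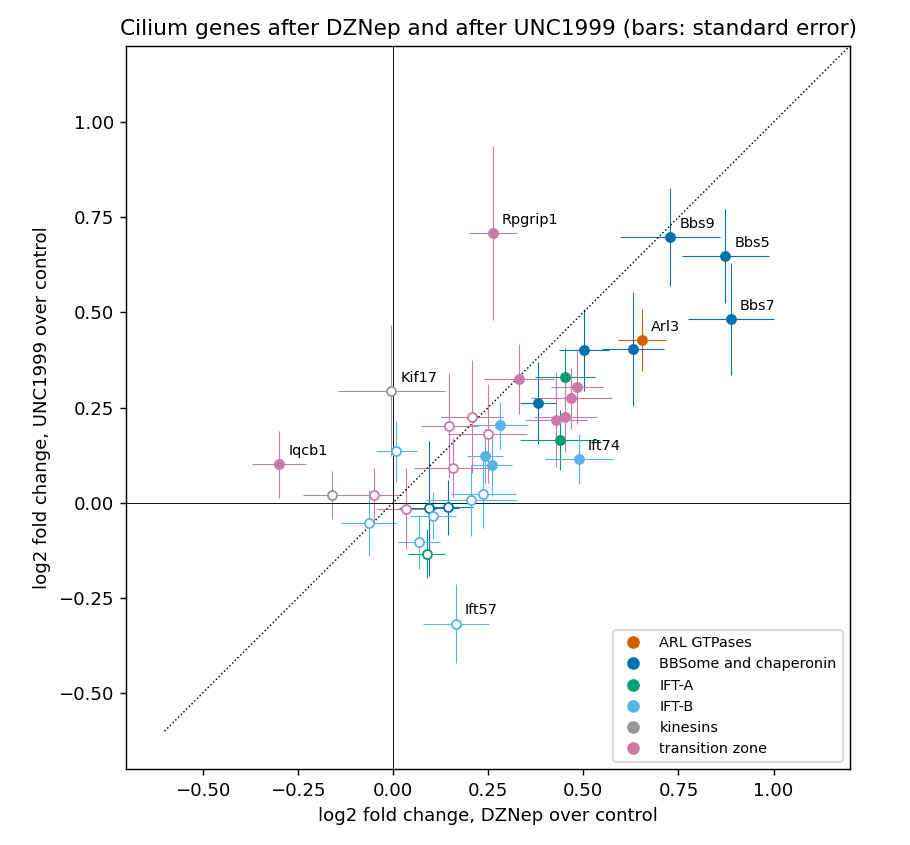
Log2 fold change after DZNep (x axis) against that after UNC1999 (y axis) for 38 of the cilium genes, each treatment against its own controls, with standard errors as bars; filled points passed after DZNep, and the dotted line marks equal changes. Bbs5, Bbs7 and Bbs9 are far up on both axes, while Rpgrip1 lies above the line and Ift57 below 0 on the y axis.

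DZNep and UNC1999 had no control in common. Across the 41 genes their log2 fold changes had a Spearman's rho of 0.73 (Pearson's r 0.68), and across all 15656 genes tested in both rho was 0.47; genes are not independent and share the content of rods in each retina, so no p is given. In a single fit of the 22 retinas, none of the 41 genes differed between the change after DZNep and that after UNC1999 at an adjusted p-value under 0.05 (0.00579% of all 17274 genes did), and 3 did at an unadjusted p under 0.05 (9.45% of all genes). The median difference was 0.13, DZNep less UNC1999.

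UNC0642 left the set centred on 0. None of the 41 genes passed, as none of all 16321 genes did (0%), with 20 genes above 0 (49.7% of all genes) and a median log2 fold change of −0.002. At an unadjusted p under 0.05 there were 5, against 14.7% of all genes. None of the 41 passed by DESeq2, where 0.613% of all genes were higher and 0.319% lower. None of them passed by the likelihood ratio test, where 0.600% of all genes were higher and 0.288% lower. The treated retinas lay above both controls for 7 genes (26.9% of all genes) and below both for 13 (25.2%). The smallest adjusted p, 0.30, belonged to Ift140, with 58.0 and 58.4 CPM in the controls and 48.7 and 49.5 CPM after UNC0642 (−0.25). Rpgr had 16.9 and 18.6 CPM against 14.7 and 13.4 CPM (−0.33), and Cep290 61.0 and 64.9 CPM against 56.2 and 51.5 CPM (−0.22), both without overlap. Bbs5 was at the other end with 23.9 and 22.9 CPM in the controls and 25.8 and 32.4 CPM after UNC0642 (0.31). The rod transcripts summed to 14388 and 14742 CPM in the controls and 14866 and 21132 CPM after UNC0642, without overlap. The higher Bbs5 value came from the treated retina with 21132 CPM. Müller glia markers summed to 10034 and 11142 CPM in the controls and 8464 and 8261 CPM after UNC0642, without overlap. Sums of microglia, cone and bipolar cell markers were also lower without overlap, and those of the pigment epithelium higher. With 2 samples per group such separation was frequent, at 26.9% and 25.2% of all genes. The part of these cells in the cilium values was not tested.

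After Romidepsin the cilium genes ranged from −0.46 for Ift80 to 0.63 for Bbs5. None passed by edgeR's quasi-likelihood test (0.573% of all 16049 genes higher and 0.174% lower), 10 had an unadjusted p under 0.05 (19.4% of all genes), and DESeq2 called 3 higher (3.71%) and the likelihood ratio test 2 (4.09%). The median log2 fold change was 0.07 and 30 genes lay above 0 (48.9% of all genes). Bbs5 measured 27.0, 24.1 and 33.1 CPM in the controls and 46.7, 40.8 and 42.7 CPM after Romidepsin (0.63, standard error 0.14, adjusted p = 0.074), with the groups apart. Kif17 (0.60), Ift57 (0.58), Arl3 (0.52) and Bbs12 (0.50) were also high without passing. Kif17, the least abundant of them, read 4.18, 5.66 and 5.48 CPM against 6.56, 8.94 and 7.74 CPM. At the low end Ift80 read 69.8, 60.9 and 65.7 CPM against 57.2, 46.7 and 38.8 CPM (−0.46, adjusted p = 0.15), and Bbs1 was at −0.33 and Rpgrip1 at −0.22. The rod transcripts summed to 23250 to 35670 CPM in the controls and 35047 to 46630 CPM after Romidepsin, overlapping between the groups. Sums without overlap included those of Müller glia markers (11694 to 13904 CPM in the controls, 8731 to 9923 CPM after Romidepsin), bipolar cell markers (2186 to 2354 against 1454 to 1711 CPM, 1 of 9 passing as lower) and inner neuron markers (2399 to 2865 against 2029 to 2220 CPM). Sums of motile cilia genes and blood markers were also lower without overlap, and that of the other cilium genes was higher. Microglia markers summed to 507 to 811 CPM in the controls and 374 to 523 CPM after Romidepsin, overlapping. Of these, 2 of 12 passed as lower (median log2 fold change −0.77). The median log2 fold change was −0.77 over cone markers and −0.93 over those of the pigment epithelium, whose sums overlapped and of which none passed. The part of these cells in the cilium values was not tested.

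The change after UNC1999 differed from that after Romidepsin for 4 of the 41 genes (5.11% of all 17274 genes did), in one fit of the 22 retinas with a contrast of the 2 effects. The difference, UNC1999 less Romidepsin on the log2 scale, was −0.91 for Ift57 (standard error 0.20, adjusted p = 0.017), 0.93 for Rpgrip1 (adjusted p = 0.039), 0.56 for Ift80 (adjusted p = 0.039) and 0.59 for Bbs1 (adjusted p = 0.046). Ift57 was lower after UNC1999 and higher after Romidepsin in each treated retina against its own controls, whereas Ift80 was at 0.10 after UNC1999. Leaving out each library of the 2 experiments in turn gave between 0 calls, without the first UNC1999 control, and 5. The 2 experiments were sequenced in library series with different names, each with its own controls. None of the other 4 contrasts between retina treatments had a cilium gene past the threshold, and few of all genes passed. The shares were 0.289% for DZNep less Romidepsin, 0.0232% for DZNep less UNC0642, 0.0174% for Romidepsin less UNC0642 and 0.0116% for UNC1999 less UNC0642. At an unadjusted p under 0.05 the cilium genes numbered 10, 17, 4 and 6 in that order. Those of all genes were 13.8%, 13.1%, 12.6% and 12.0%.

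In rods sorted after GSK2879552, none of the 41 genes passed, and none of all 14478 genes did (0%). At an unadjusted p under 0.05 there was 1 cilium gene, Bbs10 (4.91% of all genes). By DESeq2 none of the 41 passed, where 0.186% of all genes were higher and 0.111% lower. The likelihood ratio test called none of the 41 either, with 0.318% of all genes higher and 0.173% lower. The median was −0.03 and 18 genes lay above 0 (48.8% of all genes). Bbs10 read 47.9 and 39.9 CPM in the controls and 27.3 and 29.6 CPM after GSK2879552 (−0.62, standard error 0.24, adjusted p = 0.99). Rpgrip1 gave 0.06 and Arl3 −0.34, with a median standard error over the set of 0.22, against 0.079 in the DZNep comparison, so that a change of the median size seen after DZNep was not detectable here. Rpgr ran from 89.3 to 150.1 CPM between the 2 controls and from 61.5 to 98.2 CPM between the treated samples. All 10 cone markers lay below 0 without passing (median −0.95), with sums of 3104 and 4664 CPM in the controls and 2265 and 1702 CPM after GSK2879552, and the part of cones in the cilium values was not tested.

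**Figure D4:**
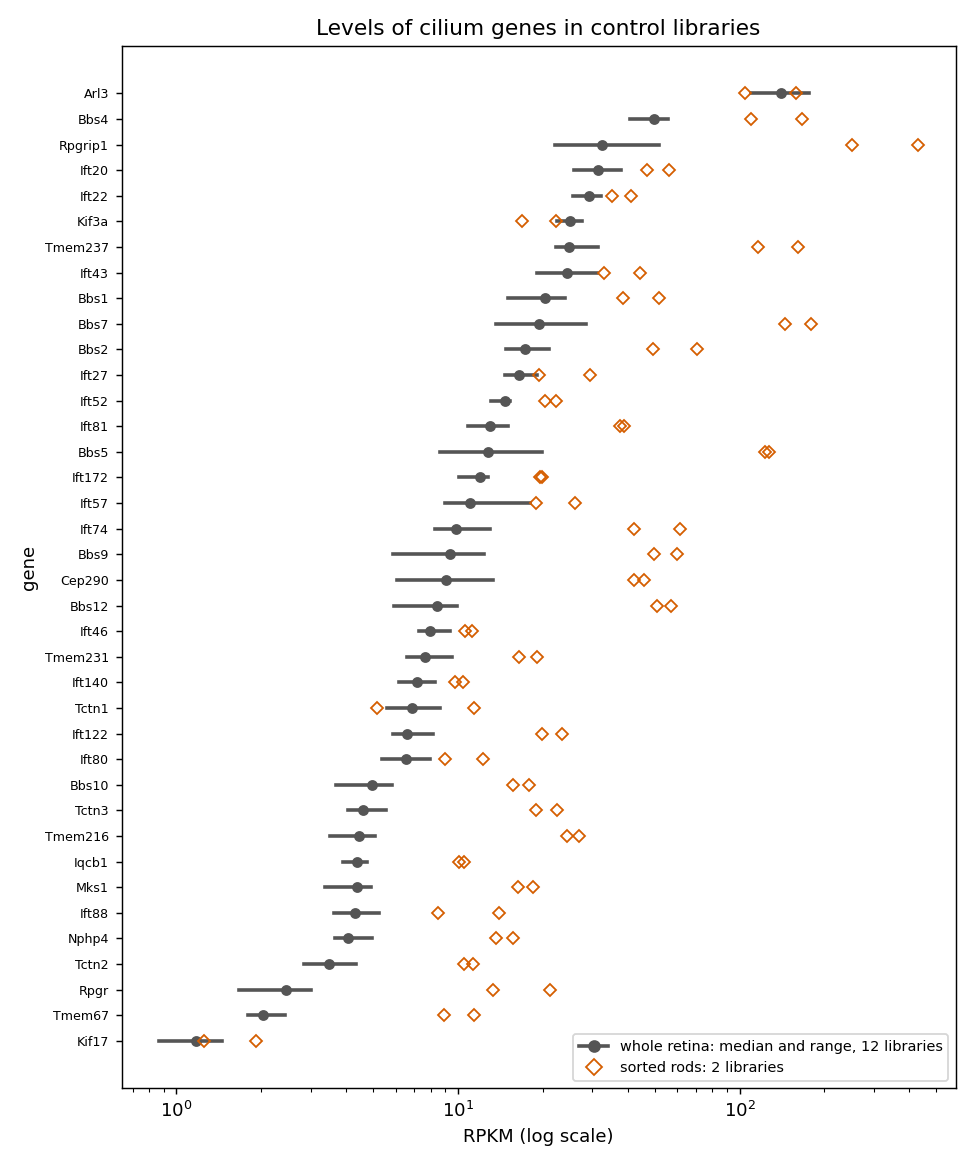
Level in RPKM (reads scaled to exon length and library size, log scale, x axis) of 38 of the cilium genes (y axis) in control libraries: grey points and lines give the median and range of 12 control retinas, and orange diamonds the 2 control libraries of sorted rods. Rpgrip1, Bbs7 and Bbs5 lie far to the right in sorted rods, and Kif3a to the left of the retina median.

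Levels differed widely between the members. Per length, Arl3 had the highest level in the 12 control retinas (median 140 RPKM, range 110 to 176), followed by Bbs4 (49.7), Rpgrip1 (32.4) and Ift20 (31.5), whose ranges all lay below that of Arl3. Kif17, at 1.18 RPKM, was at the low end. In control sorted rods Rpgrip1 was highest at 429 and 250 RPKM, then Bbs7 at 145 and 180 RPKM. The log2 ratio of RPKM in sorted rods to that in control retinas had a median of 1.49 over the cilium genes, with 38 of 41 above 0, against 1.76 over rod transcripts, −1.92 over bipolar cell markers and 0.09 over all genes tested in both. Bbs5 (3.26), Rpgrip1 (3.24) and Bbs7 (3.02) were among the highest ratios, and Arl3 (−0.09) and Kif3a (−0.35) lay under 0. Sorted rods came from another cross and, per the methods, another library kit, so that ratio mixes cell type with preparation.

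Among the cilium genes, those with a higher rod-to-retina ratio had larger changes after DZNep. Spearman's rho was 0.55 across the 41 genes, with the ratio taken against the 8 control retinas of the other experiments, and 0.47 across all 13369 genes, so the relation was close to that of genes in general. The 21 genes with the higher ratios had a median log2 fold change of 0.44 and the other 20 of 0.14. The same rho was 0.43 for UNC1999 (0.37 over all genes), 0.19 for Romidepsin (0.27) and −0.06 for UNC0642 (0.13). Single ratios are given over all 12 control retinas, those of the DZNep experiment included. Singled out after their values were seen, Rpgrip1 and Rpgr had ratios of 3.24 and 2.76 with DZNep changes of 0.26 and 0.04. In contrast, Arl3 rose by 0.65 at a ratio of −0.09.

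**Figure D5:**
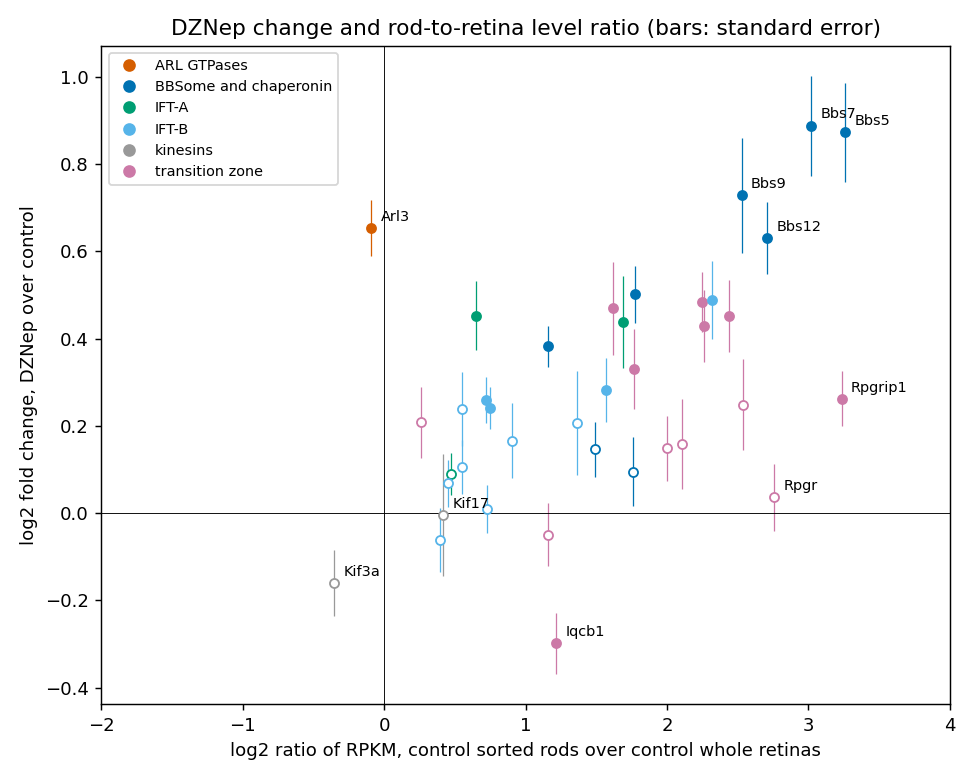
Log2 ratio of RPKM in control sorted rods to control retinas (x axis) against the log2 fold change after DZNep (y axis, bars give the standard error) for 38 of the cilium genes, filled where the DZNep test was passed. The ratio is over all 12 control retinas, so the DZNep controls enter both axes. Bbs5 and Bbs7 lie at the upper right, Rpgr and Rpgrip1 below them at similar ratios, and Arl3 at the upper left.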

How the data were processed

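The authors trimmed reads with BBDuk, aligned them to NCBIM37 (mm9, Ensembl release 67 per the paper) with HISAT2 2.2.1 and counted them per gene with HTSeq 0.11.2; the strand setting is not given in the sources used here. The deposited values are raw read counts of 37991 genes in 26 libraries, whose totals set the precision. Retina libraries were made with a stranded poly(A) kit and sorted rods with a SMART-Seq kit.

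Symbols and exon lengths came from GENCODE M1 on the same build; Ift22, Ift43 and Tmem237 are listed there as Rabl5, 1700019E19Rik and Als2cr4. Exons of 12 members overlap another gene, by up to 20.4% of their length for Tctn1 and by 16.9% for Rpgrip1. Some of these genes lie on the same strand, such as Sh2d5 beside Kif17. How reads over shared exons were counted is not given in the sources used here, and their effect was not tested.

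Each treatment was compared with the controls of its own experiment in edgeR 4.0.16 (R 4.3.3): filterByExpr, TMM scaling, and the quasi-likelihood F test where the authors used edgeR's likelihood ratio test, with Benjamini-Hochberg adjustment over all genes tested. Standard errors are the log2 fold change over the root of F. Changes were compared between treatments in 1 fit of the 22 retinas. CPM values are scaled by TMM within an experiment, and RPKM over all 26 libraries; rod-to-retina ratios use a pseudocount of 0.1 RPKM. On simulated counts with 200 changed genes, the test found 196 for DZNep, 194 for UNC1999 and 194 for UNC0642. It found 176 for Romidepsin and 106 for sorted rods. Detection at log2 fold changes as small as those of the cilium genes was not tested. No 2 replicates were copies (lowest chi-square per gene 3.89 in 23 pairs).

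Genes were named by this rule: in each comparison the members at an adjusted p-value under 0.05 (the 10 with the smallest p in a direction), and everywhere Rpgrip1, Rpgr, Cep290, Iqcb1, Arl3, Ift88, Ift140, Bbs1, Bbs4, Tmem67, Kif3a and Kif17; any other was named after its values were seen. Members plotted nowhere, though counted among the 41, are not reported here. Members and lists were chosen with earlier results of these data known. Tried beside these were DESeq2 1.42.0, the authors' likelihood ratio test, library size alone, RLE, no filter, at least 10 counts in every library, a replicate block, a log2 fold threshold of 1, 1 fit of the 22 retinas and leaving out each library; a block with crossed numbers for sorted rods was chosen after seeing the data.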

Additional observations from a re-analysis of the deposited data

Results flagged for a closer look

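Iqcb1, the gene that fell after DZNep, had 1 control far from the others: replicate 2 measured 23.2 CPM while the other 3 controls lay between 25.1 and 25.4 CPM. Chance alone marks about 1 in 20 groups of 4 in this way, and 41 genes were looked at. Both DZNep retinas lay below this control as well.

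For 4 genes the change after UNC1999 differed from the change after Romidepsin in 1 fit of the 22 retinas. The difference on the log2 scale, UNC1999 less Romidepsin, was −0.91 for Ift57, 0.93 for Rpgrip1, 0.56 for Ift80 and 0.59 for Bbs1. Without the third UNC1999 control, the library with the highest rod transcripts among controls, the change of Rpgrip1 after UNC1999 was 1.05 in place of 0.71.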

How the results depend on the processing

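After DZNep, 21 cilium genes were higher and 1 was lower. The higher count was 0 with a log2 fold threshold of 1 and 13 with a replicate block (5.58% of all genes higher). Other settings are not all listed. Over 14 alternatives without the threshold, Rpgrip1 and Nphp4 passed in 7, the fewest of the genes called higher. Arl3, Bbs5 and Bbs7 were among those that passed in 14. The lower count was 0 with the threshold, with the block and with all 22 retinas in 1 fit. It was 3 with library size alone (23.2% of all genes lower). Library size alone shifted the median of all genes by −0.12 for DZNep and −0.11 for UNC1999, and values under it are to be read against that shift. Leaving out a library in turn gave 8 to 24 higher and 0 to 2 lower genes.

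After UNC1999 the main count was 0 higher; it was 7 by DESeq2 (5.00% of all genes), 8 by the likelihood ratio test (5.32%), 8 with all 22 retinas in 1 fit (4.15%), 3 with library size alone (1.52%) and 5 with no filter (2.35%), and leaving out a library gave 0 to 16 higher and 0 to 1 lower genes. For Romidepsin the count of 0 higher became 3 by DESeq2 (3.71% of all genes), 2 by the likelihood ratio test (4.09%), 7 with all 22 retinas in 1 fit (8.92%, and 1 lower, 8.38%) and 1 with no filter (1.75%), and 0 to 1 higher genes when a library was left out. UNC0642 and sorted rods gave 0 cilium genes under each of these alternatives. Between treatments, the count for UNC1999 less Romidepsin was 4, 1 with a replicate block (1.37% of all genes), and 0 to 5 when a library was left out; DZNep less Romidepsin gave 2 by the likelihood ratio test (1.86%) and 0 to 4 without a library, and UNC1999 less UNC0642 0 to 3. The median log2 fold change of the 41 genes ran from 0.22 to 0.30 for DZNep, 0.13 to 0.24 for UNC1999, 0.07 to 0.12 for Romidepsin, −0.04 to 0.04 for UNC0642 and −0.07 to −0.0038 for sorted rods when a library was left out. The cause of these shifts was not tested.

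Log2 fold changes near 0 turned sign under some settings. With library size alone these were Ift140 (−0.027) and Rpgr (−0.081) after DZNep, and Ift88 (−0.099), Iqcb1 (−0.0066) and Kif3a (−0.087) after UNC1999. Kif17 after DZNep gave 0.0038 in the fit of 22 retinas and 0.0024 with the replicate block. With at least 10 counts in every library, Cep290 (0.0038) and Ift140 (0.0053) turned in sorted rods, and with no filter Tmem67 (−0.000204) turned after UNC0642. When a library was left out, the ranges that crossed 0 were Kif17 −0.097 to 0.066, Ift88 −0.072 to 0.40 and Rpgr −0.023 to 0.082 for DZNep, Ift88 −0.043 to 0.098, Kif3a −0.031 to 0.061, Bbs4 −0.064 to 0.039 and Rpgr −0.10 to 0.061 for UNC1999, Ift88 −0.056 to 0.17, Tmem67 −0.053 to 0.067, Kif3a −0.075 to 0.0021 and Iqcb1 −0.061 to 0.045 for UNC0642, Bbs4 −0.014 to 0.14, Cep290 −0.10 to 0.28 and Iqcb1 −0.026 to 0.12 for Romidepsin, and Bbs1 −0.13 to 0.22, Cep290 −0.10 to 0.089, Kif3a −0.10 to 0.22, Ift140 −0.021 to 0.0030, Rpgrip1 −0.30 to 0.55 and Tmem67 −0.092 to 0.34 for GSK2879552 in sorted rods.

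Replicate numbers only name the samples, and no label ties a number to a litter or day: deviations of same-numbered samples correlated between −0.39 and 0.29. For sorted rods, whose correlation was −0.11, the block with crossed numbers gave 0 calls. Apart from DZNep and UNC1999 less Romidepsin, whose counts are given above, the replicate block changed no count of calls. Depth limited sorted rods most, where the lowest count of a member was 10.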
